A study of Mus musculus with 4 samples.

Results

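Genes of the cell cycle were followed across the T cells and antigen-presenting cells (APCs) of tumor-draining lymph nodes. They were 46 of the 32285 genes in the count matrices and were taken by symbol from a list that was drawn up with earlier results of these data known. The list held 21 genes of the DNA replication phase, from Mcm2 to Cdca7, and 25 genes of G2 and mitosis, from Mki67 on. Lymph nodes came from wildtype mice on control chow and from wildtype mice on chow with RGX-104, a drug that activates the liver X receptors (LXR). The RGX-104 chow began on day 3 after injection of tumor cells, and nodes of both groups were resected on day 8. T cells and APCs were sorted by flow cytometry and sequenced as single cells with 10x 5′ chemistry, in 1 RNA library per chow. How many mice each library holds, their strain name and their age are not given in the sources used here.

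During replication, the Mcm helicase unwinds DNA, Pcna clamps the polymerase to it, and Rrm1, Rrm2, Tyms and Dut keep up the supply of nucleotides. Most of these genes are switched on by E2F factors when a cell leaves G1. Later, Cdk1 with Ccnb1 and Ccnb2 drives entry into mitosis, the kinases Plk1, Aurka and Aurkb act on spindle and kinetochores, and Ube2c and Cdc20 work with the anaphase-promoting complex to end it. Lymph nodes are where T cells that meet antigen divide, and dendritic cells resident in the node can divide as well.

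The 2 libraries held 31530931 UMIs (unique transcript counts) in 7346 barcodes for control chow and 38480769 UMIs in 8671 barcodes for RGX-104. The authors annotated 5825 of these barcodes, with 782 and 949 APCs and with 2099 and 1995 T cells, control first here and below. Median depth was 8051.5 and 9043 UMIs per APC and 4944 and 5048 per T cell. The sequencing gave 22 annotated types, and the 14 with at least 50 cells in each library were compared one by one. Levels are in CPM, the summed UMIs of a gene per 1000000 UMIs of the same cells. Lineage markers were checked in the types with most of these transcripts. Xcr1 and Clec9a, markers of type 1 conventional dendritic cells, stood at 297 and 335 CPM in control rcDC1 and at 354 and 352 in RGX-104 rcDC1. Foxp3 stood at 433 and 448 CPM in Treg. In Cytotoxic T, Cd3e of the T cell receptor complex stood at 857 and 867 CPM and Nkg7, a protein of cytotoxic granules, at 698 and 1609, while the 5 B cell markers summed to 655 and 280 CPM, whose part in the results was not tested. In Bcat1+ T, Cd3e stood at 605 and 511 CPM and Nkg7 at 187 and 245. The libraries shared 95 barcode sequences, of which 15 were annotated and 0 belonged to a cell with mitotic transcripts.

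A ratio is the RGX-104 level over the control level. A gene was taken as measured when the 2 libraries together held 50 or more of its UMIs. Intervals are exact 95% intervals for counting error alone. How far mice would differ from one another is not in them. For summed UMIs they also leave out the spread between cells, though UMIs can sit together in few cells. With 1 library per chow no test between the chows was possible, so the text gives sizes and counts of genes at least 1.5-fold higher or lower, with no p-value. In summed counts, fewer cells in cycle and less of a transcript per cell cannot be told apart unless cells are counted as well, as is done further on.

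Across cell types the genes marked out a few T cell types and rcDC1. All 25 mitotic genes had their highest mean level in Cytotoxic T, a type of 16 and 44 cells. Of the 21 replication genes, 13 were highest in Bcat1+ T, 6 in Cytotoxic T and 2 in Treg. The 25 mitotic genes together stood at 8238 and 7789 CPM in Cytotoxic T, at 2780 and 2369 in Bcat1+ T and at 2589 and 2087 in Treg. Among APCs, rcDC1 held 1553 and 2031 CPM. The compared types with the lowest sums were mLC, with 276 and 239 CPM, and, with control chow, Th1_01 with 238 CPM. Mki67, a protein of dividing nuclei, averaged 391 CPM over the libraries in Cytotoxic T, 177 in Treg and 136 in Bcat1+ T. Pcna averaged 303 CPM in Bcat1+ T and 241 in Treg.

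**Figure D1:**
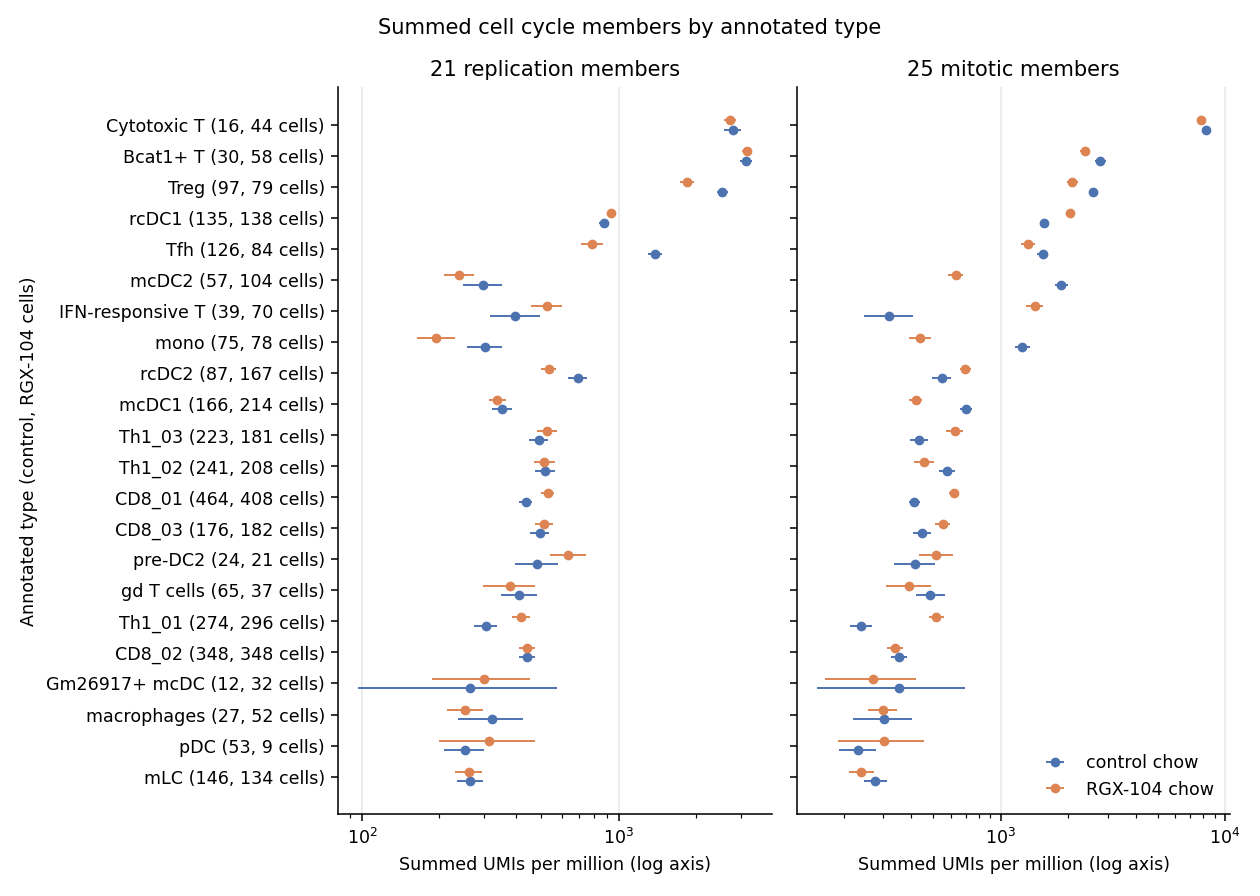
Summed CPM (log axis) of the 21 replication genes (left) and the 25 mitotic genes (right) in each annotated type, with exact Poisson 95% intervals for counting error, control chow in blue and RGX-104 chow in orange. Cytotoxic T, Bcat1+ T and Treg lie at the top of both panels, with 8238 and 7789 mitotic CPM in Cytotoxic T against 276 and 239 in mLC.

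A small number of cells carried most mitotic transcripts. A cell was said to have mitotic transcripts when at least 5 of the 25 mitotic genes had a UMI, which held for 235 of 5825 annotated cells (4.03%). These were 64 of 2099 and 63 of 1995 T cells, and 48 of 782 and 60 of 949 APCs. In T cells, cells with at least 5 other mitotic genes detected held 98.0% of the UMIs of Ccnb2, a cyclin of mitotic entry, 97.7% of those of Ube2c, 97.1% of those of Birc5, a part of the chromosomal passenger complex, and 91.8% of those of Mki67. Pclaf, a partner of Pcna, was as concentrated, with 97.1%. Other genes of the list were spread over cells with fewer mitotic genes detected. The same cells held 29.7% of the UMIs of Slbp, which binds histone mRNA, 30.2% of those of Pcna, 40.0% of those of Cenpa, the histone of the centromere, and 42.5% of those of Cks2. Hmgb2, a chromatin protein, had 58.6% of its UMIs there and was detected in 51.1% of the remaining T cells. In APCs the range ran from 98.1% for Birc5 and 97.4% for Ccna2 down to 28.2% for Slbp.

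In T cells as a whole, mitotic genes were higher with RGX-104 and replication genes were nearly level. The 25 mitotic genes summed to 845 CPM with control chow and 1076 with RGX-104, a ratio of 1.27 (1.24 to 1.31). The 21 replication genes summed to 764 and 819 CPM, a ratio of 1.07 (1.04 to 1.10). All 25 mitotic genes were measured, with a median log2 ratio of 0.44, and 10 of them were at least 1.5-fold higher, against a background of 2.92% of all genes measured in T cells. None was at least 1.5-fold lower, where the background was 1.66%. Counting intervals lay above 1 for 19 of the 25, a count with no share over all genes beside it. All 21 replication genes were measured, with a median log2 ratio of 0.09, and 0 passed 1.5-fold either way. The median over all 10214 measured genes was -0.01.

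By the lower bound of the interval, Ube2c, Ccnb1 and Plk1 had the highest ratios. Ube2c, the ubiquitin-conjugating enzyme of the anaphase-promoting complex, had 206 UMIs with control chow and 522 with RGX-104, or 18.0 and 46.1 CPM, a ratio of 2.57 (2.18 to 3.03). Its UMIs came from 42 and 48 cells, and number of cells and level per cell were not tested apart. Ccnb1, cyclin B1, had 44 and 101 UMIs, or 3.84 and 8.93 CPM, a ratio of 2.33 (1.62 to 3.39), from 18 and 36 cells. Plk1, the polo kinase, had 36 and 81 UMIs, or 3.14 and 7.16 CPM, a ratio of 2.28 (1.52 to 3.48), but a log2 ratio of -0.26 once every cell was thinned to 2000 UMIs. Another 7 passed 1.5-fold: Aurkb at 1.94, Ccna2 at 1.85, Cdc20 at 1.67, Ccnb2 at 1.62, Aurka at 1.52, Cenpf at 1.51 and Kif11, a spindle motor, at 1.504. Cdk1 did not pass it, at 1.39 (1.06 to 1.83), nor did the general markers of dividing cells. Mki67 was at 36.4 and 49.2 CPM (ratio 1.35, 1.19 to 1.54), and Top2a, the topoisomerase that untangles chromosomes, at 39.3 and 49.3 CPM (1.25, 1.11 to 1.42).

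The abundant mitotic genes that cells outside mitosis also carry had ratios between 1.09 and 1.23. Hmgb2 stood at 368 and 453 CPM (ratio 1.23, 1.18 to 1.28). Stmn1, a regulator of microtubules, stood at 95.8 and 105 CPM (1.09, 1.01 to 1.19). Cenpa stood at 71.4 and 81.1 CPM (1.13) and Cks2 at 52.0 and 59.8 CPM (1.15). The kinetochore motor Cenpe was level, with 103 UMIs in each library and a ratio of 1.01.

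Among replication genes, Pclaf had the clearest difference, with 56.0 and 69.4 CPM and a ratio of 1.24 (1.12 to 1.38). Pcna was at 109 and 122 CPM (1.12, 1.03 to 1.21). Mcm6 and Mcm3, 2 subunits of the helicase, stood at 55.9 and 55.5 CPM (0.993, 0.888 to 1.11) and at 41.3 and 45.1 CPM (1.09). Dut, which removes dUTP, stood at 95.3 and 98.8 CPM (1.04) and Slbp at 76.5 and 75.8 CPM (0.990, 0.9003 to 1.09). The lowest ratios were those of Cdc6, which loads the helicase, with 45 and 37 UMIs (0.833, 0.524 to 1.32), and Cdca7, a chromatin factor, with 21.5 and 19.5 CPM (0.907, 0.753 to 1.09). Both intervals include 1.

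**Figure D2:**
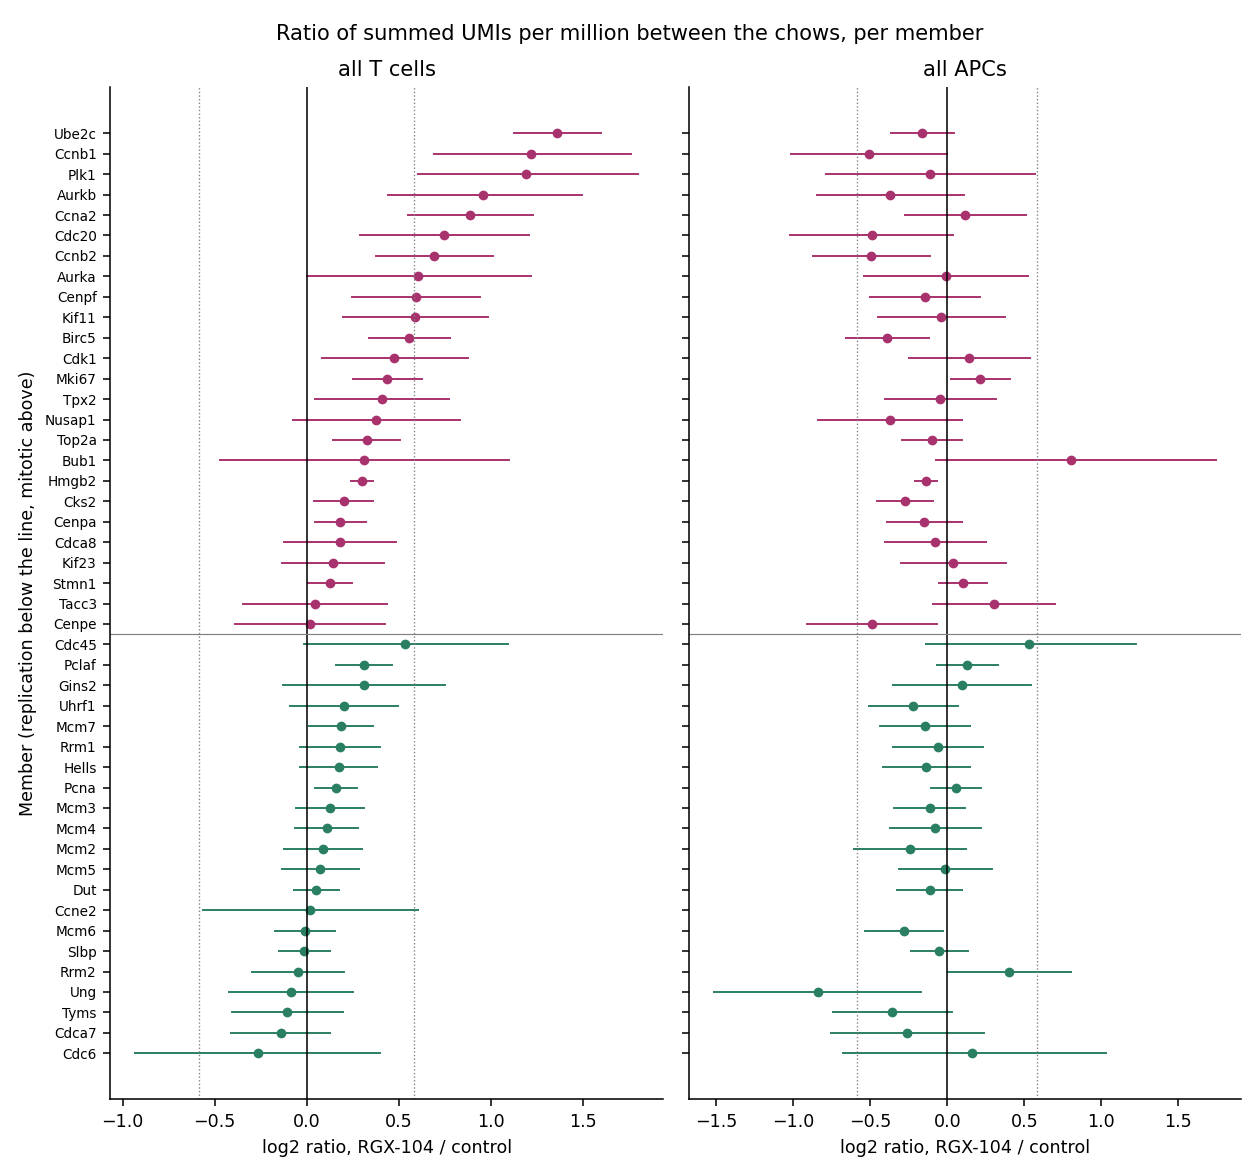
Log2 ratio of CPM, RGX-104 over control, for each measured gene in all T cells (left) and all APCs (right), with exact 95% intervals for counting error. Mitotic genes are above the horizontal line and replication genes below it, and dotted lines mark 1.5-fold. In T cells 10 of 25 mitotic genes lie at least 1.5-fold higher, led by Ube2c, and none of the 21 replication genes does.

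The promoters of replication and mitotic genes were searched for letters of 3 elements. Of the 46 genes, 39 had an entry by symbol in the RefSeq promoter table (GRCm38.p6), and Aurkb, Ccne2, Ccna2, Tpx2, Mcm4, Gins2 and Stmn1 had none. The matches gave 20 promoters of replication genes and 21 of mitotic genes. The 250 bases before each start were searched on both strands, and a match was counted whether or not it overlapped another. The E2F letters TTTCCCGC or TTTGGCGC were found in 6 of 20 replication promoters (30.0%), in 0 of 21 mitotic promoters and in 1.30% of all 32851 promoters. The letters TTTGAA or TTTAAA of the CHR element, bound by complexes that time mitotic genes, were found in 3 of 20 replication promoters (15%), 13 of 21 mitotic promoters (61.9%) and 25.2% of all. CCAAT was found in 14 of 20 (70.0%), 18 of 21 (85.7%) and 33.8% of all. These are matches of letters and not measured binding. CHR letters were found in 7 of the 8 promoters of mitotic genes past 1.5-fold in T cells, all but Aurka, and in 6 of the 13 other mitotic promoters, those of Birc5, Cdk1, Cenpa, Hmgb2, Mki67 and Top2a. Of the 20 replication promoters 14 held no E2F letters. Ube2c, Ccnb1, Plk1 and Cdc20 of the 8, and Mcm6, 1 of 2 replication genes with TTTGGCGC, were chosen for their matches and are shown as examples of them. Each line is the 120 bases before the start, on the gene's strand, with CHR, CCAAT and E2F letters of either strand in capitals.
Ube2c: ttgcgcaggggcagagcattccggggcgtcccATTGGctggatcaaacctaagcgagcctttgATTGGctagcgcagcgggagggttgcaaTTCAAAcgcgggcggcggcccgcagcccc
Ccnb1: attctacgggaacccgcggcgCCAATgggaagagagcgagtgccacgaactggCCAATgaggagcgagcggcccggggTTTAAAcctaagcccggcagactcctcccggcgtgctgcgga
Plk1: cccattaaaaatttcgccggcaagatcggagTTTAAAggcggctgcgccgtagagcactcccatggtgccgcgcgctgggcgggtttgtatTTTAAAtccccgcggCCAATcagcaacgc
Cdc20: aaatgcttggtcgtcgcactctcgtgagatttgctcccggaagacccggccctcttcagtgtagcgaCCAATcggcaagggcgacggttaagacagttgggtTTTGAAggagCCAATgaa
Mcm6: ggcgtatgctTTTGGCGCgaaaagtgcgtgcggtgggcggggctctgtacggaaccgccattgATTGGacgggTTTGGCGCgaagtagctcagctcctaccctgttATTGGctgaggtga
They lie just upstream of the genes at chr2:164769809-164769928 (plus strand), chr13:100786487-100786606 (minus), chr7:122159315-122159434 (plus), chr4:118437344-118437463 (minus) and chr1:128359706-128359825 (minus). Ube2c, Ccnb1, Plk1 and Cdc20 each hold CHR and CCAAT letters, while Mcm6 holds TTTGGCGC at 2 places and CCAAT on the minus strand, written ATTGG. Whether promoter letters bear on the ratios was not tested.

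The share of T cells with mitotic transcripts differed by less than its counting error. It was 3.05% (64 of 2099, Clopper-Pearson 2.36 to 3.88) and 3.16% (63 of 1995, 2.43 to 4.02), a ratio of 1.04 (0.720 to 1.49). With every cell thinned to 2000 UMIs, which left out 41 and 27 shallower cells, it was 1.65% and 1.68%. Near the limit, 55 and 48 cells had 4 to 6 mitotic genes detected, so the class is a range and not a cell type. In mLC, a type with low mitotic sums, 1 of 146 cells passed with control chow and 0 of 134 with RGX-104, which allows a share of up to 2.24% (3 cells of 134, and 2.72% by the Clopper-Pearson bound), at median depths of 6909 and 7330 UMIs.

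The same 25 genes chose these cells, so their values within them are a description. Cells with mitotic transcripts had 11 of the 25 genes detected at the median with control chow and 15 with RGX-104, and 12 and 22 of them had at least 20. Their mitotic genes summed to 6205 and 7602 CPM, while those of the other T cells summed to 347 and 335. Their replication genes summed to 4486 and 4187 CPM. Within these cells, 7 of 25 mitotic genes were at least 1.5-fold higher with RGX-104 and 0 lower, where 3.99% and 7.08% of the 5283 genes measured in them were, led by Plk1 at 2.75, Ube2c at 2.19 and Ccnb1 at 1.94. The RGX-104 cells were the deeper ones, with a median of 13742.5 and 17389 UMIs in cells with mitotic transcripts against 4895 and 4987 in the rest. Their makeup differed too, with 13 and 22 Cytotoxic T, 10 and 15 Bcat1+ T, 19 and 10 Treg, and 11 and 6 Tfh. Cytotoxic T held 19.9% of all mitotic UMIs of T cells with control chow and 30.4% with RGX-104.

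Weighting every T cell equally, by the mean of per-cell CPM, gave a mitotic ratio of 1.03 and a median log2 ratio of -0.01, with 4 genes at least 1.5-fold higher (background 3.19%) and 0 lower (background 2.35%). Thinning every cell to 2000 UMIs gave a median of 0.04, with 3 genes higher and 2 lower (background 5.73% and 4.77%). Ube2c kept a log2 ratio of 0.93 under the first and 1.02 under the second. Plk1 went to -0.26 on thinning, Aurka and Kif11 to -0.11 and -0.10 on weighting cells equally, and Mki67, Top2a and Cenpf lay below 0 under both. Ccnb1 lay at 1.16 and 0.065. Without Cytotoxic T and Bcat1+ T the summed mitotic ratio was 1.11 and the replication ratio 0.919, and the ratio of shares of cells with mitotic transcripts was 0.688. There 5 mitotic genes were at least 1.5-fold higher (background 2.8%) and 2 replication genes lower (background 2.16%). Averaged over the 8 compared T cell types with equal weights, the mitotic ratio was 0.989 and the replication ratio 0.845. Neither depth nor makeup was tested as a source of the pooled difference. Transcripts of another lineage were found in 6.25% and 7.94% of T cells with mitotic transcripts and in 0.688% and 1.29% of the rest.

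**Figure D3:**
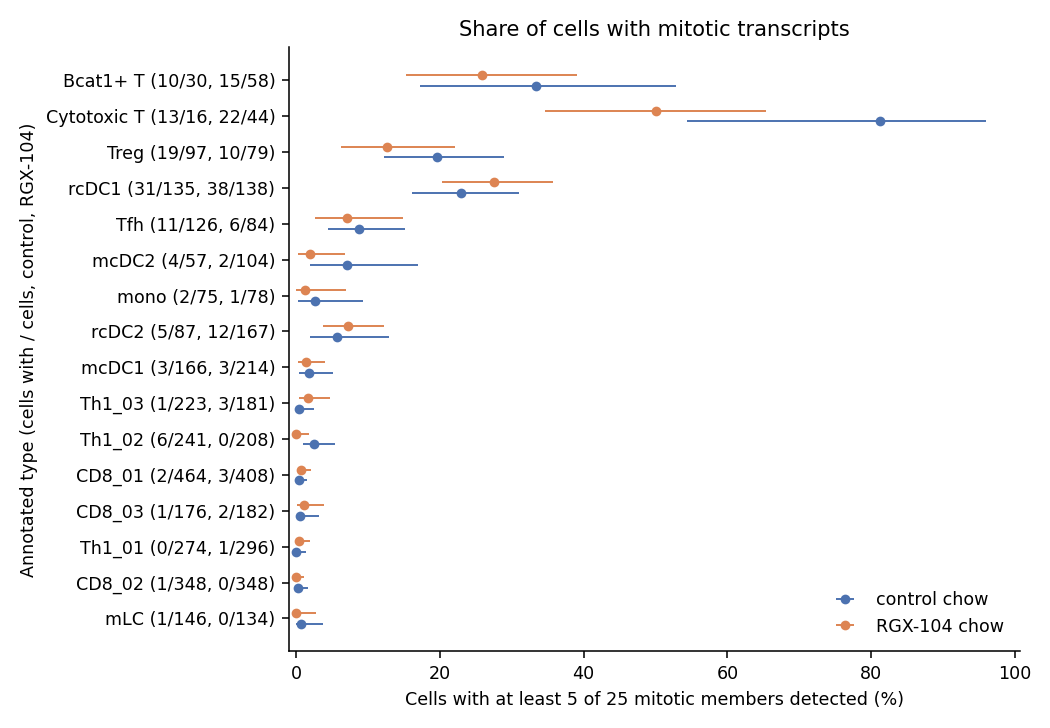
Share of cells with at least 5 of the 25 mitotic genes detected in each annotated type (percent), with Clopper-Pearson 95% intervals for counting error, control chow in blue and RGX-104 chow in orange. The intervals of the chows overlap in every type drawn, including rcDC1 (31 of 135 and 38 of 138 cells) and Treg (19 of 97 and 10 of 79).

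Cells with replication transcripts, at least 5 of the 21 replication genes, were 6.62% (139 of 2099) and 8.57% (171 of 1995) of T cells, a ratio of 1.29 (1.03 to 1.63). At 2000 UMIs per cell the shares were 2.04% and 2.03%, a ratio of 0.996 (0.629 to 1.57). Most cells with mitotic transcripts also had replication transcripts, 81.2% and 88.9% in T cells and 75.0% and 76.7% in APCs.

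In APCs as a whole both sums lay slightly below level with RGX-104. The mitotic genes summed to 943 and 876 CPM, a ratio of 0.929 (0.89998 to 0.959), and the replication genes to 521 and 499 CPM, a ratio of 0.958 (0.918 to 0.999). The replication ratio turned to 1.01 with the mean over cells, and TMM scaling would add 0.06 to every log2 ratio in APCs, about the size of this difference. Of 25 measured mitotic genes 1 was at least 1.5-fold higher (background 4.14%) and 0 were lower (background 4.44%), with a median log2 ratio of -0.12. Of 20 measured replication genes 0 were higher and 1 was lower, with a median of -0.10, and Ccne2 was not measured. These shares are near the background. Over all 10346 measured genes the median was -0.06.

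The 1 mitotic gene past 1.5-fold in APCs was Bub1, a checkpoint kinase, with 16 and 38 UMIs, a ratio of 1.74 (0.949 to 3.35). The 1 replication gene was Ung, which removes uracil from DNA, with 46 and 35 UMIs or 6.29 and 3.52 CPM, a ratio of 0.559 (0.349 to 0.886). Mki67 was the mitotic gene with an interval above 1, at 51.3 and 59.5 CPM (1.16, 1.02 to 1.32). Birc5 stood at 31.3 and 23.9 CPM (0.763, 0.634 to 0.919) and Ccnb2 at 16.4 and 11.7 CPM (0.710, 0.545 to 0.924). Rrm2, the inducible subunit of ribonucleotide reductase, stood at 11.5 and 15.2 CPM (1.32, 1.004 to 1.74). Members that led in T cells were below 1 here, with Ube2c at 49.8 and 44.5 CPM (0.894) and Ccnb1 at 9.58 and 6.73 CPM (0.703, 0.495 to 0.997). That T cells and APCs differ in these ratios was not tested.

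The abundant genes were close to level in APCs. Hmgb2 stood at 377 and 343 CPM (0.908), Stmn1 at 79.3 and 85.1 (1.07), Top2a at 54.0 and 50.4 (0.933), Cenpa at 35.0 and 31.5 (0.901) and Cks2 at 63.6 and 52.6 (0.827). Pcna stood at 72.2 and 75.1 CPM (1.04), Dut at 45.6 and 42.1 (0.924), Slbp at 58.3 and 56.3 (0.965), Pclaf at 49.4 and 54.0 (1.09), Mcm3 at 38.2 and 35.3 (0.924) and Mcm6 at 34.1 and 28.0 (0.823, 0.691 to 0.980). Cells with mitotic transcripts were 6.14% (48 of 782) and 6.32% (60 of 949) of APCs, and 3.03% and 2.63% after thinning, with 41 and 56 cells near the limit. Replication transcripts were found in 11.4% and 10.6% of APCs, and in 2.50% and 2.08% after thinning. A single mcDC1 cell held 99.6% of the neutrophil marker UMIs (S100a8, S100a9 and Elane) of the RGX-104 APCs with mitotic transcripts, 1080 of 1084, and 0.998% of the mitotic UMIs of all RGX-104 APCs. No control APC with mitotic transcripts had a neutrophil marker UMI. Transcripts of another lineage were found in 12.5% and 15% of APCs with mitotic transcripts and in 5.45% and 4.95% of the rest.

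APC types lay on either side of the pooled ratio. In rcDC1 the mitotic genes summed to 1553 and 2031 CPM, a ratio of 1.31 (1.25 to 1.37), and 1.29 without the 3 cells with most mitotic UMIs in each library. Of 23 measured mitotic genes 7 were at least 1.5-fold higher (background 4.2%) and 0 lower (background 3.45%), and the median log2 ratio was 0.48. Mki67 stood at 88.7 and 142 CPM (1.60, 1.34 to 1.91), Top2a at 88.2 and 139 (1.57) and Ube2c at 84.6 and 123 (1.46). The others past 1.5-fold were Aurka and Cenpf at 1.76, Tacc3, a spindle protein, at 1.71, Cdca8 at 1.66 and Cdk1 at 1.53. Ccnb2 and Cdc20 lay below 1, at 0.827 and 0.857, with intervals that include 1. The replication genes of rcDC1 were near level in sum, at 874 and 938 CPM (1.07, and 1.02 without the top 3 cells). Rrm2 stood apart from them, with 51 and 133 UMIs or 23.2 and 51.8 CPM, a ratio of 2.23 (1.61 to 3.15), from 15 and 21 cells of which the top one held 27.5% and 18.8%. Pclaf stood at 114 and 165 CPM (1.45) and Mcm6 at 57.3 and 44.8 CPM (0.782, 0.602 to 1.02).

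Shares of cells in rcDC1 overlapped. Mitotic transcripts were found in 31 of 135 cells (23.0%, 16.2 to 31.0) and 38 of 138 (27.5%, 20.3 to 35.8), and at 2000 UMIs in 13.0% and 14.2%, with 15 and 19 cells near the limit. After thinning, the median log2 ratio of the mitotic genes in rcDC1 was -0.03. Transcripts of another lineage were found in 12.9% and 15.8% of rcDC1 with mitotic transcripts and in 6.73% and 10% of the rest. Of the mitotic UMIs of all APCs, rcDC1 held 49.5% with control chow and 59.8% with RGX-104. Without rcDC1 the summed mitotic ratio of APCs was 0.698, 14 mitotic genes were at least 1.5-fold lower (background 6.86%) and 0 higher (background 5.09%), and Mki67 and Rrm2 turned to log2 ratios of -0.19 and -1.41.

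In several other APC types single cells held much of the mitotic counts. In mcDC2 the mitotic genes summed to 1862 and 630 CPM (ratio 0.338), but 1 cell held 47.0% and 61.8% of them, and without the 3 top cells of each library the ratio was 0.915. Top2a had the lowest ratio there (0.139, with 60.7% of control UMIs in 1 cell) and Pcna the highest (2.16, 1.11 to 4.59, from 8 and 40 cells). Against the median of all genes, the TMM and median-of-ratios scalings shifted mcDC2 by 0.12 and 0.13 on the log2 scale. In mono the sums were 1249 and 437 CPM (0.350), with 49.3% of the control UMIs in 1 cell and 0.665 without the top 3. Its Top2a had 48 and 3 UMIs, of which 1 control cell held 77.1%. In mcDC1 the sums were 703 and 419 CPM (0.596), with 53.0% and 38.6% in 1 cell and 0.790 without the top 3. In rcDC2 the mitotic genes summed to 547 and 695 CPM (1.27, and 1.17 without the top 3), while the replication genes summed to 693 and 535 (0.772, and 1.03 without them). Its highest ratio was that of Cks2 (1.60, 1.13 to 2.31) and its lowest that of Uhrf1, which maintains DNA methylation (0.431, 0.253 to 0.733). In mLC the ratios of measured genes ran from 1.24 for Slbp to 0.840 for Hmgb2, both with intervals that include 1.

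**Figure D4:**
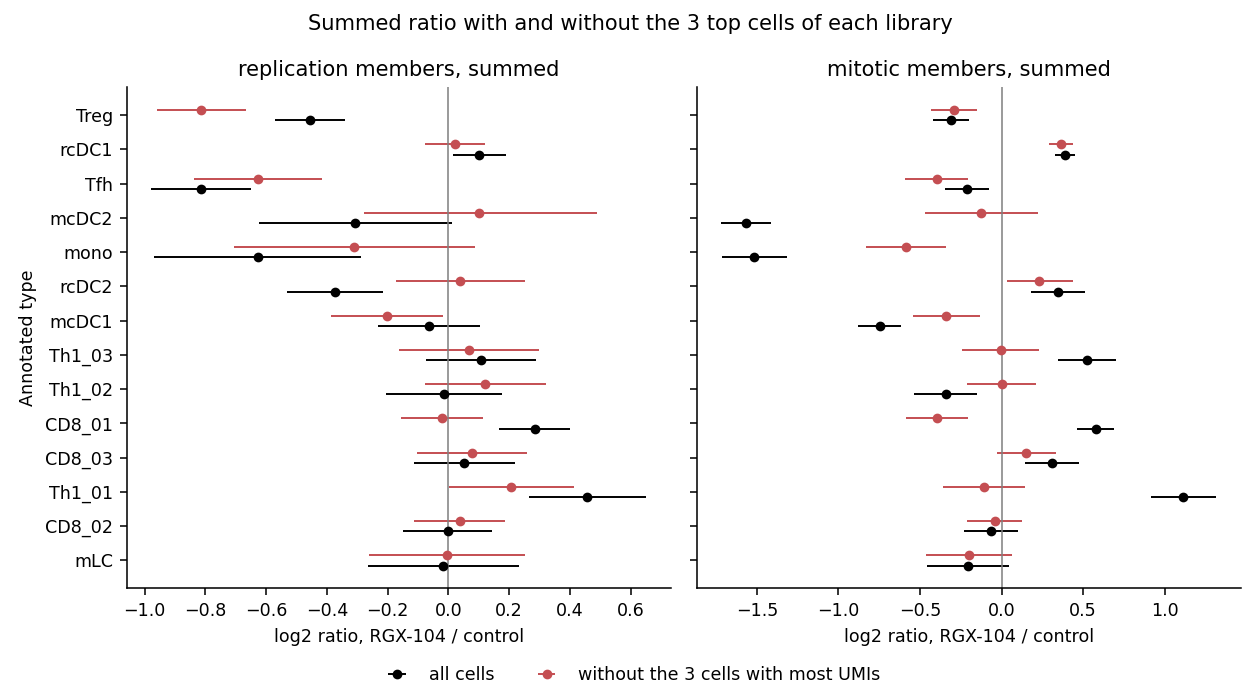
Log2 ratio of summed CPM, RGX-104 over control, in each compared type for the replication genes (left) and the mitotic genes (right), with exact 95% intervals for counting error. Black points use all cells and red points leave out the 3 cells with most UMIs of the group in each library. In mcDC2 the mitotic ratio goes from 0.338 to 0.915, while in rcDC1 it stays at 1.31 and 1.29.

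Summed over regulatory T cells, replication genes were lower with RGX-104. In Treg the replication genes summed to 2536 and 1851 CPM, a ratio of 0.730 (0.674 to 0.790), and 0.569 without the top 3 cells. Of 16 measured replication genes 6 were at least 1.5-fold lower (background 7.51%) and 0 higher (background 4.59%). These were Rrm2 at 0.506, Pclaf at 0.521, Mcm4 and Tyms at 0.533, Mcm6 at 0.615 and Mcm5 at 0.662. Of 7 measured mitotic genes 2 were lower. Stmn1 had 318 and 101 UMIs, or 497 and 188 CPM, a ratio of 0.378 (0.299 to 0.475), from 25 and 13 cells. Top2a stood at 208 and 113 CPM (0.546, 0.397 to 0.745). Hmgb2 was level at 914 and 930 CPM (1.02), and Mki67 stood at 186 and 167 (0.901). Cells with mitotic transcripts were 19 of 97 (19.6%) and 10 of 79 (12.7%), or 10% and 3.85% after thinning. Those with replication transcripts were 22 of 97 and 16 of 79. The 19 and 10 cells with mitotic transcripts held 86.2% and 73.3% of the replication UMIs of Treg, so these sums rest mostly on few cells.

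Summed over Tfh cells, the follicular helper cells, replication genes were lower as well. Their sums were 1385 and 789 CPM, a ratio of 0.569 (0.508 to 0.637), and 0.648 without the top 3 cells. Of 12 measured replication genes 7 were at least 1.5-fold lower (background 5.43%) and 0 higher (background 4.3%). Mcm5 stood at 64.6 and 17.9 CPM (0.277), Mcm2 at 59.1 and 17.9 (0.303), Mcm3 at 70.1 and 30.5 (0.435) and Rrm1 at 61.8 and 30.5 (0.493). Pclaf had 113 and 30 UMIs, a ratio of 0.346 (0.223 to 0.522), from 5 cells in each library, of which the top one held 34.5% and 50%. Hells and Slbp were at 0.567 and 0.571. Mcm6 did not share this, at 96.2 and 108 CPM (1.12, 0.778 to 1.60). Of 6 measured mitotic genes 2 were lower, Cks2 at 0.541 and Top2a at 0.587, and the mitotic sum was 1536 and 1328 CPM (0.864). Mitotic transcripts were found in 11 of 126 (8.73%) and 6 of 84 (7.14%) Tfh cells, or 3.31% and 2.38% after thinning. Replication transcripts were found in 18 of 126 and 10 of 84 Tfh cells. The 11 and 6 cells with mitotic transcripts held 68.8% and 39.8% of the replication UMIs of Tfh.

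The other 6 compared T cell types held between 0 and 6 cells with mitotic transcripts in each library. In CD8_01 the mitotic ratio was 1.49, with 0.759 without the top 3 cells, and Mki67 had the highest ratio (2.56, with 71.1% and 71.8% of its UMIs in 1 cell) and Slbp the lowest (0.872). In Th1_01 the ratio was 2.17, where 59.0% of the RGX-104 UMIs came from 1 cell, and 0.928 without the top 3, with Hmgb2 at 1.79 and Stmn1 at 0.987. In CD8_02 Mcm4 was at 1.29 and Dut at 0.705 (0.515 to 0.962), and in CD8_03 Cks2 at 1.65 (1.20 to 2.29) and Dut at 0.719. In Th1_02 Pcna was at 1.26 and Hmgb2 at 0.876, and in Th1_03 Hmgb2 at 1.32 and Pcna at 0.899. Cytotoxic T, with 81.2% (13 of 16) and 50% (22 of 44) of cells with mitotic transcripts, had too few control cells to be compared by gene. IFN-responsive T had a mitotic ratio of 4.45 with 83.9% of the RGX-104 UMIs in 1 cell.

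The deposited cell cycle scores followed the summed genes across cells in Pearson correlation and less so in rank order. Over all T cells of a library, the Pearson correlation of the S score with the replication genes' share of UMIs was 0.889 and 0.890, and of the G2M score with the mitotic share 0.902 and 0.921, over 2099 and 1995 cells that share depth and may share genes. Spearman values were 0.550 and 0.585, and 0.444 and 0.480. The deposited phase calls put 38.5% and 39.5% of T cells in S, of which 13.5% and 17.1% had at least 5 replication genes detected. They put 10.6% and 11.9% in G2M, of which 13.0% and 13.5% had at least 5 mitotic genes. In APCs 13.0% and 11.5% were called S and 4.604% and 3.79% G2M, and 66.7% and 69.4% of the latter had at least 5 mitotic genes.

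By receptor, mitotic transcripts were found in 3.64% (56 of 1540) and 3.97% (49 of 1235) of T cells whose clone was seen once, and in 1.70% (5 of 294) and 1.63% (7 of 429) of those in clones of 2 or more cells. Median depths were 5226 and 5343 UMIs in the first and 4621 and 4770 in the second. Within Treg, mitotic transcripts were found in 16 of 75 and 10 of 57 cells of the first and in 2 of 11 and 0 of 7 of the second. Within Cytotoxic T they were found in 12 of 14 and 17 of 24 cells, and in 0 of 1 and 3 of 13. Within Bcat1+ T the counts were 9 of 26 and 10 of 38, and 0 of 1 and 1 of 9. T cells with no receptor had them in 1.13% (3 of 265) and 2.11% (7 of 331). Neither depth nor cell type was tested as a source of the difference between clone classes.

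Other genes of the pathway, a list of 87 regulators and partners, were counted in the same way. In T cells 83 were measured, with a median log2 ratio of 0.16, and 8 were at least 1.5-fold higher and 0 lower, against the 2.92% and 1.66% of all genes. Cdca3, a mitotic entry factor, stood at 9.77 and 19.0 CPM (1.95, 1.54 to 2.47), Kif2c, a microtubule depolymerase, at 1.83 and 3.54 (1.93), Sgo1, which protects centromeres, at 2.09 and 3.80 (1.82) and Ckap2l at 3.31 and 5.75 (1.73). Foxm1 and Mybl2, which switch on mitotic genes, had 32 and 48 UMIs (1.52, 0.952 to 2.46) and 49 and 68 UMIs (1.41, 0.960 to 2.07). In APCs 80 were measured, with a median of -0.07, and 4 were higher and 2 lower, shares near the 4.14% and 4.44% of all genes. The lower ones were Cdkn2d, an inhibitor of Cdk4 and Cdk6, with 33.1 and 15.7 CPM (0.473, 0.385 to 0.581), and Klf2, a factor of resting lymphocytes, with 316 and 192 CPM (0.606, 0.570 to 0.644). Kif4 and Gins1 had the highest ratios there, 1.90 (1.06 to 3.55) and 1.70 (0.922 to 3.27).

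LXR and sterol genes could be read in the cells that carry the members. Abca1 and Abcg1, which export cholesterol, and Srebf1 and Scd2 of fatty acid synthesis are switched on by LXR, and Hmgcs1, Idi1, Insig1 and Sqle are switched on by SREBP2 when cells lack sterol. All 7 of these genes that were measured in T cells with mitotic transcripts were at least 1.5-fold higher there, with intervals above 1. Of all 5283 genes measured in those cells, 3.99% were at least 1.5-fold higher. The 7 are a chosen list of LXR and SREBP2 genes. Scd2 stood at 46.2 and 426 CPM in them (9.23, 6.79 to 12.8) and at 19.4 and 261 in the other T cells (13.5, 11.7 to 15.6). Abca1 had ratios of 7.07 and 8.46, Srebf1 of 3.89 and 5.19, and Abcg1 of 4.77 (3.05 to 7.79) and 3.01 (2.72 to 3.32). Insig1 had a ratio of 2.07 (1.35 to 3.25) in cells with mitotic transcripts and 4.89 (4.15 to 5.79) in the rest, and Idi1 2.76 (1.86 to 4.21) and 5.25 (4.32 to 6.41). Hmgcs1, an enzyme of cholesterol synthesis, had ratios of 2.67 (1.67 to 4.42) and 3.09 (2.65 to 3.62). In the control library Idi1 already stood at 33.9 CPM in cells with mitotic transcripts against 11.8 in the rest. These differences between the cells were not tested.

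**Figure D5:**
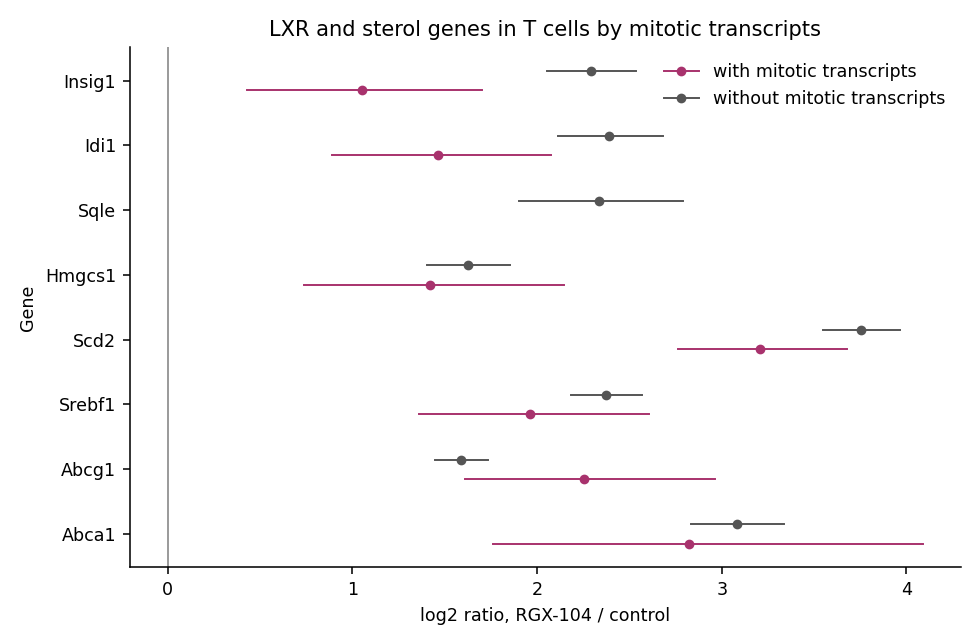
Log2 ratio of CPM, RGX-104 over control, of LXR and sterol genes in T cells with mitotic transcripts (magenta) and without them (gray), with exact 95% intervals for counting error. Sqle was not measured in cells with mitotic transcripts. Insig1 lies at 2.07-fold with and 4.89-fold without mitotic transcripts.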

How the data were processed

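The authors deposited UMI counts per gene and barcode for both RNA libraries, from Cell Ranger, whose version 5.0.0 stands in the matrix per the file headers. The genome mm10 is named with Seurat 5.0.3 in the submitters' processing notes. Their annotation tables, deposited for APCs and T cells, give each cell's type, UMI and gene counts, percent of mitochondrial UMIs, unitless S, G2M and doublet scores, phase and clone size. All their doublet calls read singlet. Cells were joined to barcodes by UMI count, genes detected over genes in 3 or more barcodes, and mitochondrial percent, and all 5825 matched 1 barcode. Counts were summed by type and library and divided by all UMIs of those cells. Intervals are exact Poisson, conditional binomial (ratios) and Clopper-Pearson (shares). A library at 0 is set against 3 counts.

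No test across genes was run, because each chow has 1 library. The ratio intervals were tested on simulated Poisson counts, drawn gene by gene. Those counts hold no clustering of UMIs in few cells, so they do not show how the intervals do in these data. Named genes were the 6 replication and 6 mitotic members with most UMIs, Mki67, Top2a, the 3 highest and lowest by the interval bound nearest 1 in each compartment, the highest and lowest in each compared type, and up to 4 pathway genes per compartment. Cdc6 and Cdk1 in T cells, Bub1 in APCs and others past 1.5-fold were named after their values were seen, as were Foxm1 and Mybl2. The members and lists were chosen with earlier results of these data known. Alternatives covered scaling, UMI minimum, thinning (seed 1), mean over cells, and leaving out cells or types; leaving out types or the top member cells was chosen after seeing the data. Receptor contigs were not used. Part of the list of sterol genes is not reported here. Software was Python 3.11.15, numpy 2.4.6, scipy 1.17.1, pandas 2.3.3, R 4.3.3 and edgeR 4.0.16, the last for TMM factors only.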

Additional observations from a re-analysis of the deposited data

Results flagged for a closer look

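Some types differed from the pooled ratio of their compartment in direction or past the counting interval, and none of these differences was tested. Among APCs, where the pooled mitotic ratio was 0.929, rcDC1 and rcDC2 lay above 1 in mitotic genes, at 1.31 and 1.27, while mcDC1 and mono lay at 0.596 and 0.350, the last at 0.665 without its 3 top cells. The lowest ratio, 0.338 in mcDC2, went to 0.915 without them. Among T cells, where the pooled mitotic ratio was 1.27, Tfh and Treg lay below 1, at 0.864 and 0.806. In replication genes Tfh and Treg lay at 0.569 and 0.730 and Th1_01 at 1.37, against 1.07 in all T cells.

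Barcodes that neither annotation table names also held mitotic transcripts, in 3.36% of 4465 with control chow and 2.79% of 5727 with RGX-104. These were 57.3% and 56.5% of all barcodes with mitotic transcripts in each library. At least 2 B cell markers were found in 84 of 150 (56%) and 59 of 160 (36.9%) of them, against 28.6% and 31.5% of all unannotated barcodes. At least 2 T cell markers were found in 60 and 83 and at least 2 myeloid markers in 8 and 24. Median depth was 12208 and 10899.5 UMIs in them, against 1106 and 1127 in the other unannotated barcodes. Over all unannotated barcodes the mitotic genes summed to 1849 and 1462 CPM, a ratio of 0.790. The replication genes summed to 999 and 862 CPM, a ratio of 0.862. Neither depth nor makeup was tested as a source of these values.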

How the results depend on the processing

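Over 231 results and 1904 alternative values, 1577 stayed on their side, 289 moved and 38 changed direction, and for all APCs and all T cells 159 of 204 values of medians, sums, shares and counts stayed. The causes were not tested. Mean over cells: in T cells the mitotic median was -0.0080, the sum 1.03 and 4 genes passed 1.5-fold, and 1 replication gene was higher; Mki67 was at -0.091, Top2a -0.14, Cdk1 -0.10, Tpx2 -0.22, Aurka -0.11, Cenpf -0.20, Kif11 -0.10 and Stmn1 -0.11 (log2); in APCs the sums were 0.898 (mitotic) and 1.01 (replication), with 4 mitotic genes lower and 0 higher and 0 replication genes lower; rcDC2 replication was 1.04 and CD8_01 mitotic 0.949. Thinned to 2000 UMIs: the mitotic median in T cells was 0.037, with 3 genes higher and 2 lower, and 1 replication gene each way; Pclaf was at -0.23, Mki67 -0.38, Top2a -0.38, Cdk1 -0.38, Tpx2 -0.14, Plk1 -0.26, Cenpf -0.039, Cenpa -0.17 and Stmn1 -0.20; the share ratio for replication was 0.996; in APCs 2 replication genes were higher and 2 lower, 4 mitotic lower, and Cenpe at 0.15; the rcDC1 and CD8_01 mitotic medians were -0.033 and -0.11. Without Cytotoxic T and Bcat1+ T: replication median -0.14 with 2 genes lower and sum 0.919, mitotic sum 1.11 with 5 genes higher, mitotic share ratio 0.688, Mcm7 -0.040, Pclaf -0.24 and Stmn1 -0.23. Without rcDC1: mitotic median -0.63, sum 0.698, 14 genes lower and 0 higher, 3 replication genes lower, Rrm2 -1.41 and Mki67 -0.19. Without the top 3 cells: rcDC2 replication 1.03, CD8_01 replication 0.985 and mitotic 0.759, and mitotic Th1_01 0.928, Th1_02 1.001 and Th1_03 0.997; without the top cell Th1_01 was 0.929. Control-library weights gave type-standardised ratios of 0.827 for mitotic genes in APCs, and 1.11 for mitotic and 0.952 for replication genes in T cells. Counts also moved with TMM and median-of-ratios scaling (1 replication gene higher in APCs), at 2-fold (3 mitotic genes higher in T cells; 0 in APCs either way), at a minimum of 200 UMIs (5 mitotic higher in T cells; 0 in APCs), without cells of another lineage (5 mitotic and 0 replication genes lower in APCs), and without the highest doublet scores or the top cell (1 replication gene higher in T cells). The counts at these last settings, and those of APCs by mean over cells or thinned, have no share over all genes beside them. No paired analysis was possible because each chow has 1 RNA library.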
